A study of Mus musculus with 8 samples.

Results

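Kit, Kitl, Cxcr4 and Cxcl12 form the receptor and ligand pairs that guide migrating primordial germ cells (PGCs), from which sperm and eggs later arise. They were taken from the deposited value table as the probes whose annotation gave exactly 1 gene symbol equal to one of these names, and each of the 4 genes had 1 such probe, among 19938 genes in all. The arrays held RNA of GFP-positive cells sorted from the posterior of single mouse embryos at embryonic day 9.5. There were 4 WT embryos (Ror2+/+) and 4 mutant embryos homozygous for the Y324C change in Ror2 (Ror2Y324C/Y324C), a Wnt5a receptor of the tyrosine kinase class, and each embryo gave 1 array. All embryos came from crosses of heterozygous parents in which the father carried 2 copies of the Oct4-ΔPE reporter, so WT and mutant cells alike carried the GFP transgene on a mixed strain background. The reporter follows an Oct4 regulatory sequence active in germ cells. The Ror2 change was present in every cell of the mutant embryos, so the tissue around the PGCs was mutant as well. Ages ran from 21 to 25 somites, with 25, 25, 22 and 21 in WT 1 to 4 and 24, 22 to 23, 23 and 21 to 22 in mutants 1 to 4.

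Kit is a receptor tyrosine kinase on PGCs, and its ligand Kitl (stem cell factor) is made by the somatic cells along the migration route. Kitl binding supports survival, proliferation and motility of PGCs through phosphoinositide 3-kinase, Akt and Ras signalling. Cxcr4 is a G protein-coupled chemokine receptor on PGCs, and its ligand Cxcl12 (SDF-1), made by body wall and gonadal ridge mesenchyme, directs PGCs toward the gonadal ridges. Ackr3 is a second receptor of Cxcl12 that removes the ligand from its surroundings rather than signalling through G proteins.

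Values are log2 array signals as deposited. A probe's value depends on its own sequence, so the 4 genes' levels are not compared with each other. No detection calls were used here, and as a guide to scale 95% of the 1194 genes for odorant and pheromone receptors (olfactory and vomeronasal), proteins of sensory neurons, had mean values between 2.14 and 5.54. Of all 19938 genes, 10332 had a mean above 5.54, so a marker list with a similar share above it does not by itself show a cell type.

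The 250 bases before the transcription start of each gene, from the RefSeq promoter table (GRCm38.p6), are shown so that the start regions of the receptor and ligand genes can be read beside their levels. All are written 5′ to 3′ on the gene's own strand, and capitals mark matches of the core promoter motif TATAAA and of the Sp1-type motif GGGCGG on either strand.
Kit (chr5:75574737-75574986, + strand): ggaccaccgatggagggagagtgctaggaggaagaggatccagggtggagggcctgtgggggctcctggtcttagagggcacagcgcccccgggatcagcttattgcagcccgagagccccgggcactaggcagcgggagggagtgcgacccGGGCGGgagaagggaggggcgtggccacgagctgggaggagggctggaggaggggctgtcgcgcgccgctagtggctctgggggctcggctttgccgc
Kitl (chr10:100015571-100015820, + strand): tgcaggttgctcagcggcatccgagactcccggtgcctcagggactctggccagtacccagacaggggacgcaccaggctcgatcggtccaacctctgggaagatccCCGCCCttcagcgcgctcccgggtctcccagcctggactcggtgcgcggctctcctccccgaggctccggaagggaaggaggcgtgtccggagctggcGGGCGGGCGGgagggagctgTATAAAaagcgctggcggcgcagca
Cxcr4 (chr1:128592300-128592549, - strand): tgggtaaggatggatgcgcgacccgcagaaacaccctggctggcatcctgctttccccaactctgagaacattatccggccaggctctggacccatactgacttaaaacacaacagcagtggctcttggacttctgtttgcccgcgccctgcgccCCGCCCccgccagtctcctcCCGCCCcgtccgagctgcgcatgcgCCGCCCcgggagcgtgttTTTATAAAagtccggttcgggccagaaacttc
Cxcl12 (chr6:117168285-117168534, + strand): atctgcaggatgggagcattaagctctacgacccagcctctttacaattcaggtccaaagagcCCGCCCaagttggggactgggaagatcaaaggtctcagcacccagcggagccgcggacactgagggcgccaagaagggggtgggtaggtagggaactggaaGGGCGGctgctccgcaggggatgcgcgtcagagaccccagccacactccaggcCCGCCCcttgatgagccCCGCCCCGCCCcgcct

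A TATAAA match began 25 bases before the start of Kitl and 30 bases before that of Cxcr4, where it overlapped a match on the other strand, while the windows of Kit and Cxcl12 held none. TATAAA on either strand occurred in 12.4% of 32851 windows of this length in the table. GGGCGG was present in all 4 windows, with 1 match for Kit, 3 for Kitl, 3 for Cxcr4 and 5 for Cxcl12, some of which overlap, and in 32.7% of all windows. CTTTGAT, a T-cell factor motif searched on both strands, matched once, 163 bases before the start of Cxcl12, and occurred in 3.21% of windows. The octamer ATGCAAAT and the E-box CACGTG (1.60% and 6.02% of windows) were not among the letters of these 4 windows. A match describes the letters and does not show a bound site. The table held 2 start sites for Kit, and the more upstream of them was used.

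The sorted cells carried the transcripts that define PGCs. Of 14 germ cell markers, 13 had a mean above the 5.54 mark, among them Pou5f1 (Oct4), the source of the reporter sequence, at 11.13 ± 0.18 in WT and 11.24 ± 0.12 in mutants (SD, n = 4 each), and Dppa3 (Stella) at 11.27 ± 0.23 and 11.41 ± 0.11. Fut4 was the marker below it, at a mean of 4.18. The median probe value of an array lay between 5.37 and 5.58, and its SD across genes was smallest in WT 3 (1.77) and largest in WT 1 (1.95). WT 3 and mutant 4 differed from the other 6 arrays in having high Xist and low Y-linked values, so each group held 1 array of this kind. The transcript of Ror2, in which the mutation is a single amino acid change, was at 7.69 ± 0.21 in WT and 7.81 ± 0.34 in mutants.

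Other cells that express Kit include blood progenitors, mast cells and melanoblasts, and their markers were read as lists. None of the 8 mast cell markers (0 of 8) had a mean above 5.54. Their list mean, the mean log2 value of the markers in an array, ran from 3.97 to 4.24 in WT and from 3.91 to 4.08 in mutants. Of the 8 melanoblast and neural crest markers 1 lay above it, Sox10 at 5.91, with list means from 4.64 to 4.89 in WT and from 4.62 to 4.73 in mutants. Tyr and Dct, enzymes of melanin synthesis, had means of 3.67 and 4.16. Of the 10 blood progenitor markers 5 lay above it, led by Myb at 7.88 and Gata2 at 6.88, with list means from 5.29 to 5.73 in WT and from 5.38 to 5.65 in mutants. Of all 19938 genes, 10332 lay above it. The leukocyte antigen Ptprc (CD45), which marks white blood cells, was at 4.17. Primitive erythroid markers were a separate list, with 4 of 9 above 5.54 and the highest at 9.74. Their list means ran from 5.18 to 5.81 in WT and from 5.23 to 5.38 in mutants. Of 10 macrophage markers 2 lay above 5.54. Whether each marker is active in its cell type at this age was not examined. A low list value therefore does not show that the cell type was absent.

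The first question was whether the receptors and ligands differ between mutant and WT germ cells. All 4 genes had higher group means in mutants, as did 44.6% of all genes. The differences of the 4 ran from 0.14 to 0.55 on the log2 scale. None of the 4 passed limma's test across all genes (Benjamini-Hochberg adjusted p = 0.973 for each), and 0% of all genes did. At an unadjusted limma p under 0.05, 1 of the 4 was counted, Cxcl12, where 934 genes, or 4.68% of all, were. No gene of the 4 had mutant and WT values that did not overlap, a pattern seen in 2.52% of all genes.

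Kit was at 10.43, 10.41, 10.28 and 10.65 in WT 1 to 4 and at 10.54, 10.65, 10.64 and 10.51 in mutants 1 to 4. The mutant values lay close together, within 0.14, inside or just above the WT range of 0.37, and WT 4 matched the highest mutant. The group means were 10.44 ± 0.15 and 10.59 ± 0.07 (SD, n = 4 each), a ratio of 1.10-fold with a limma 95% interval from 0.909 to 1.34. An exact two-sided permutation test over the 70 ways to assign the arrays gave p = 0.171 (0.229 after adjustment over the 4 genes), where 0.0286 is the smallest p the design allows. The difference was 0.14, and 0.09 without WT 3, the lowest array.

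Kitl was at 4.54, 4.63, 4.64 and 4.70 in WT and at 4.95, 4.68, 4.82 and 4.86 in mutants. Mutant 2 lay just under WT 4, and the other 3 mutants lay above every WT array. The means were 4.63 ± 0.07 and 4.83 ± 0.11, with a difference of 0.20 ± 0.12 (limma SE), or 1.15-fold (95% interval 0.956 to 1.38). The exact permutation p was 0.0571 (0.171 adjusted over the 4 genes). Every Kitl value lay below 5.54, within the range of the olfactory receptor probes, so these values do not separate Kitl transcript in the sorted cells from background.

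Cxcr4 was at 8.37, 9.10, 8.77 and 7.89 in WT and at 9.05, 9.22, 8.97 and 8.60 in mutants. The WT arrays were spread over 1.21, with WT 4 lowest and WT 2 level with the mutants, whereas the mutants spanned 0.62. The means were 8.53 ± 0.52 and 8.96 ± 0.26, or 1.34-fold with an interval from 0.920 to 1.96, and the exact permutation p was 0.229. The size of this difference rested on WT 4, since it was 0.21 without that array, against 0.43 with all arrays and 0.62 without WT 2. The SD of Cxcr4 over the 8 arrays was larger than that of 88.9% of genes, while that of Kit was larger than that of 8.59% and that of Kitl than that of 9.48%.

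Cxcl12 was at 5.32, 5.53, 5.55 and 5.47 in WT and at 5.53, 5.94, 6.20 and 6.41 in mutants. The WT values lay within 0.24 of each other, mutant 1 lay among them, and mutants 2, 3 and 4 lay above all of them. The means were 5.47 ± 0.11 and 6.02 ± 0.38, a difference of 0.55 ± 0.19 (limma SE), or 1.46-fold with an interval from 1.10 to 1.95. The unadjusted limma p was 0.0134, at which Cxcl12 ranked 239 among 19938 genes, the adjusted p was 0.973, and the exact permutation p was 0.0857 (0.171 adjusted over the 4 genes). The difference ran from 0.42 without mutant 4 to 0.71 without mutant 1. Its unadjusted limma p stayed under 0.05 in all 19 settings computed, with adjusted p-values from 0.569 to 0.9999. These settings reuse the same arrays, so they are not independent support, and the exact permutation test was not rerun in them. The WT arrays, from 5.32 to 5.55, lay near the upper end of the olfactory receptor range (5.54), and mutants 2 to 4 lay beyond it.

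**Figure D1:**
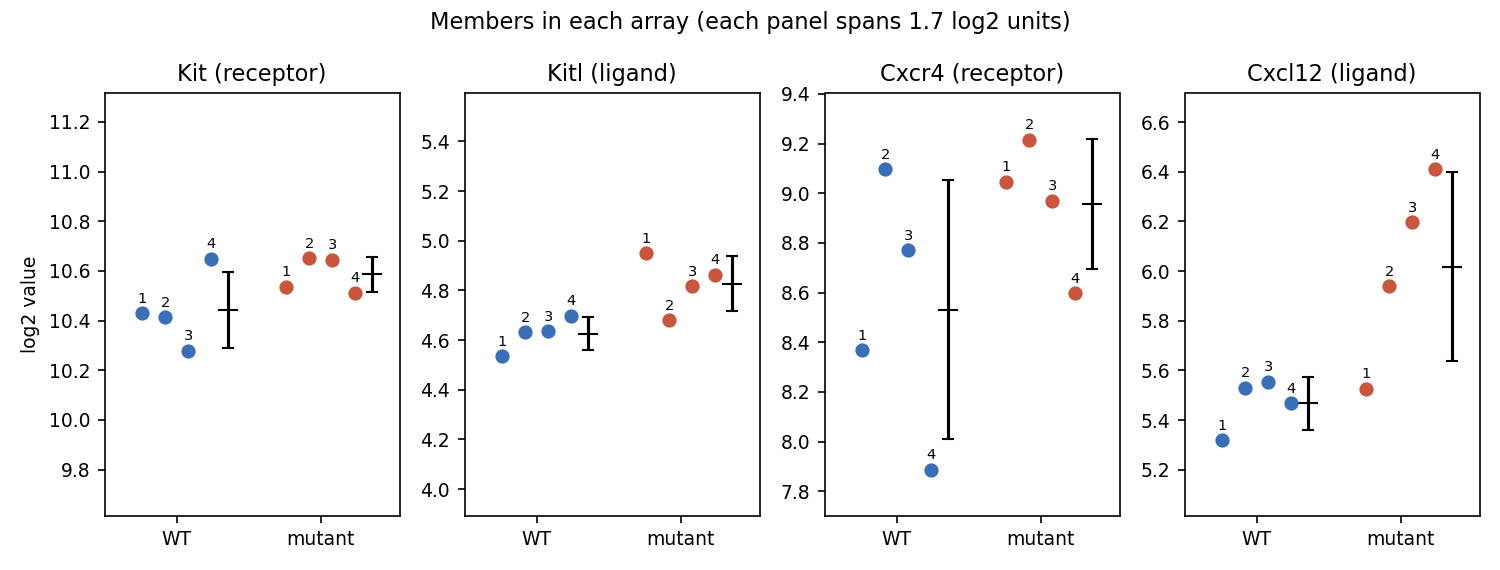
Log2 values of Kit, Kitl, Cxcr4 and Cxcl12 (vertical axes, each spanning the same width) in the 4 WT and 4 mutant arrays, with the replicate number above each point and bars for the mean ± SD. The Cxcl12 values of mutants 2 to 4 lie above all 4 WT values, while the WT arrays of Cxcr4 are spread from 7.89 to 9.10.

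**Figure D2:**
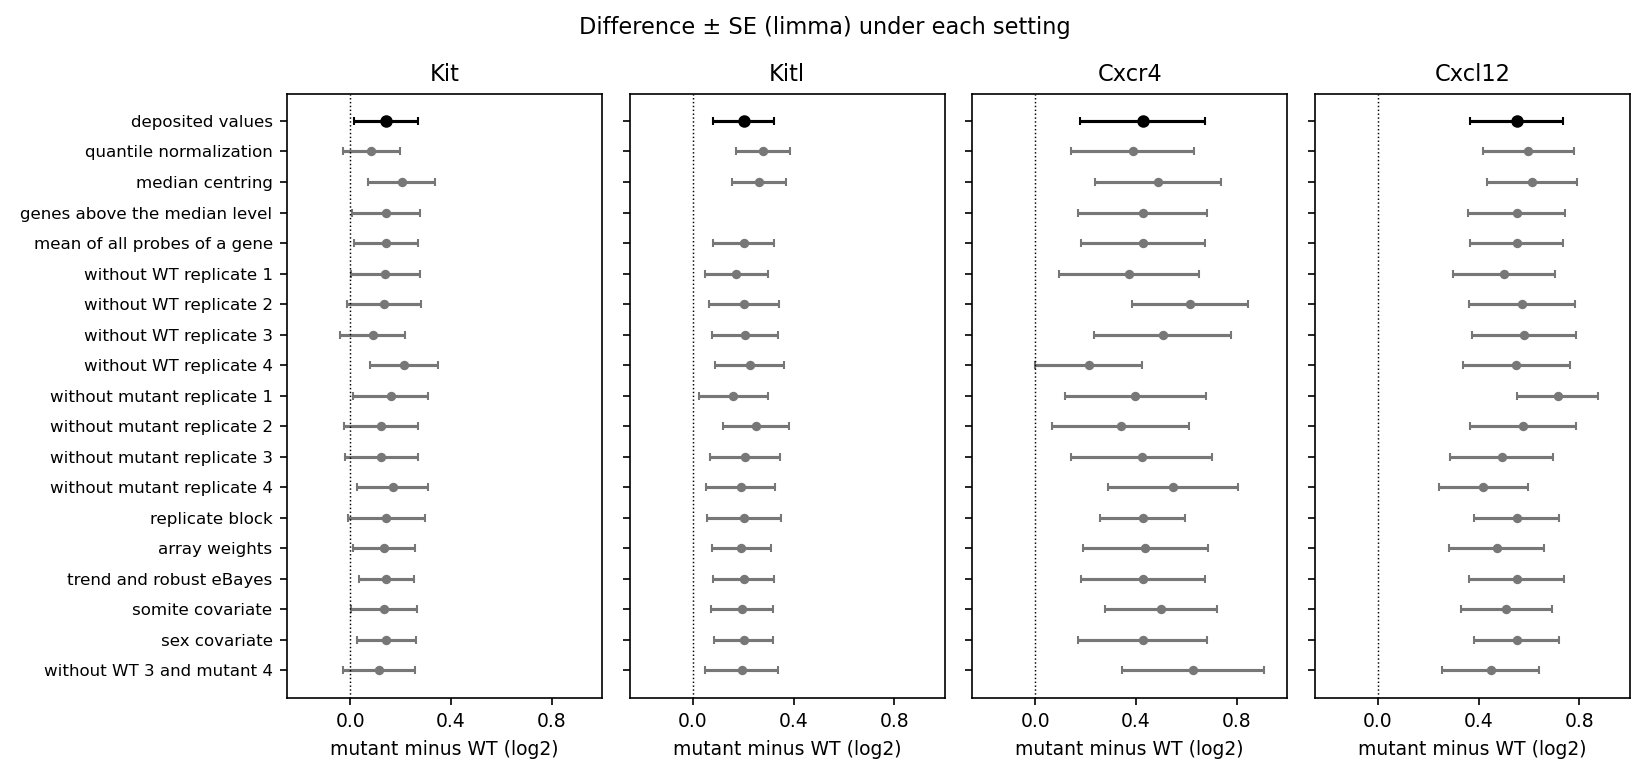
Mutant minus WT difference (horizontal axis, log2) with limma SE bars for each gene under the deposited values and each alternative. Every point lies to the right of 0, and the Cxcr4 difference is smallest without WT replicate 4, at 0.21. Kitl has no point for genes above the median level because its mean is below it.

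Ligand transcript in sorted germ cells can also come from other cells in the sort, and fewer cells of a type cannot be told apart from less RNA per cell in such samples. Markers of tissues that make Kitl or Cxcl12 were therefore read beside Cxcl12, and not beside Kitl, whose values all lay below 5.54. For the counts of markers above 5.54, the share of all genes was 10332 of 19938. Trunk mesenchyme markers, of which 5 of 12 lay above 5.54, had list means from 5.17 to 5.67 in WT and from 5.34 to 5.45 in mutants, with the highest in WT 3. The mesenchymal receptor Pdgfra was at 5.31 ± 0.39 in WT and 5.13 ± 0.22 in mutants. Urogenital mesoderm markers, of which 4 of 10 lay above 5.54, had list means from 5.19 to 5.44 in WT and from 5.19 to 5.56 in mutants. In mutants 1 to 4 the urogenital means were 5.29, 5.19, 5.23 and 5.56, where Cxcl12 was 5.53, 5.94, 6.20 and 6.41. Hindgut endoderm markers (6 of 10 above 5.54) had means of 5.88, 5.89, 6.04 and 6.33 in mutants 1 to 4, the same order as Cxcl12. In WT 1 to 4 the means were 5.82, 6.01, 6.25 and 6.43, where Cxcl12 was 5.32, 5.53, 5.55 and 5.47. Of these 10 markers 1 had a positive somite slope, against 8070 of 19938 genes, and their median slope was -0.09 per somite. Mutant Cxcl12 also fell with somite number, at -0.32 per somite. Whether the shared order follows age was not tested. Endothelial markers (3 of 10 above 5.54, with Pecam1, which PGCs also express, highest at 8.68) had means from 5.50 to 5.63 in both groups. The part of any of these tissues in the Cxcl12 difference was not tested.

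Ackr3, the scavenging receptor of Cxcl12, was at 6.002, 5.71, 5.87 and 5.84 in WT and at 5.59, 5.47, 5.01 and 5.62 in mutants. All 4 mutant values lay below all 4 WT values, as in 288 of 19938 genes. Of the 1194 olfactory and vomeronasal receptors, 34 were lower in mutants without overlap and 4 higher. In mutants 2 and 3 Ackr3 lay below the 5.54 mark. The means were 5.86 ± 0.12 and 5.42 ± 0.28 (SD, n = 4 each), a difference of -0.43 ± 0.16 (limma SE) with an unadjusted limma p of 0.0212 and an adjusted p of 0.973. The difference was -0.30 without mutant 3, and its unadjusted limma p was above 0.05 without that array or without WT 1. Dpp4, a surface protease that inactivates Cxcl12, was at 4.91 ± 0.19 in WT and 4.68 ± 0.23 in mutants, below the 5.54 mark. Adam17, a protease that sheds membrane-bound proteins, was at 7.48 ± 0.50 and 7.73 ± 0.28.

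**Figure D3:**
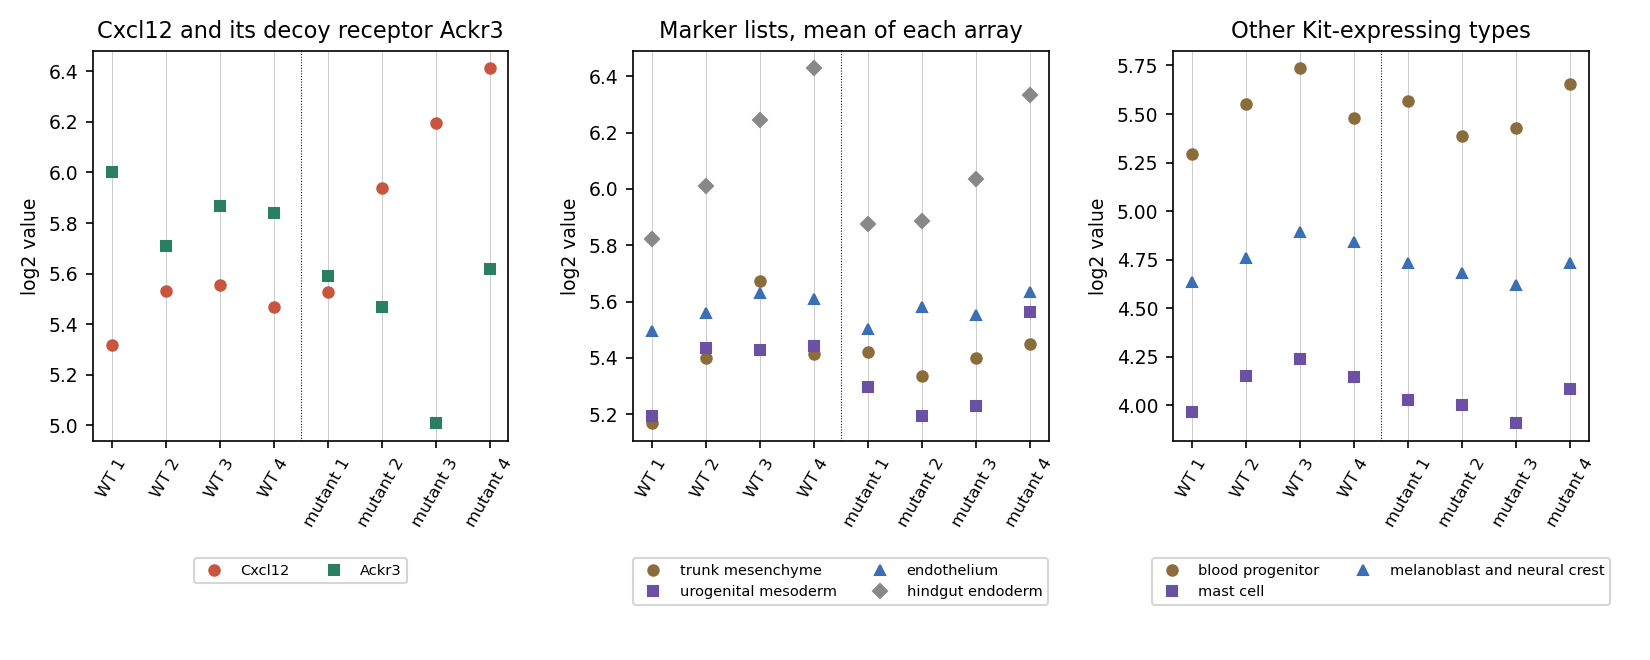
Log2 values in each array (horizontal axis) of Cxcl12 and Ackr3 (left), list means of markers of ligand-making tissues and endothelium (middle) and of other Kit-expressing cell types (right). Ackr3 is at 5.62 or lower in all mutants and at 5.71 or higher in all WT arrays, and the trunk mesenchyme mean of every mutant lies within the WT range.

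Genes of the Kit pathway, mostly components that carry or limit its signal, with the protease Adam17 among them, were read as a list of 46, of which 38 had a single-gene probe and 34 of these a mean above 5.54. None passed limma's test in either direction. At an unadjusted limma p under 0.05 there were 3 genes higher and 2 lower, together 13.2%, against 4.68% of all genes (2.72% higher and 1.96% lower). The median difference was 0.07 with 24 of 38 above 0, against -0.02 and 44.6% for all genes. That count was 24 after quantile normalization and 28 after median centring, where 52.3% and 58.2% of all genes lay above 0 and the median of all genes moved by 0.03 and 0.06. Without WT 3 it was 21 of 38, or 55.3%, against 50.2% of all genes. Most of the list lay above 5.54, whereas of the olfactory and vomeronasal receptors, mostly of low signal, 27.3% lay above 0 on deposited values. Whether the share above 0 follows signal level was not tested. The genes of smallest p were Mtor, the growth kinase downstream of Akt, at 8.67 ± 0.18 in WT and 9.03 ± 0.13 in mutants (SD), Cblb, a ubiquitin ligase of activated receptors, at 7.42 ± 0.28 and 7.90 ± 0.28, and Akt1, a kinase of the survival signal, at 8.64 ± 0.37 and 8.16 ± 0.21. Their limma differences were 0.37 ± 0.14, 0.48 ± 0.19 and -0.48 ± 0.19 (SE), each with an adjusted p of 0.973, and in none of the 3 did the groups separate fully.

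The Cxcr4 pathway list held 42 genes, Ackr3 and Dpp4 beside the signalling components, with 38 measured and 32 of these above 5.54. None passed, and at an unadjusted limma p under 0.05 there were 4 higher and 1 lower, the lower one being Ackr3. Together these were again 13.2% of the list, against 4.68% of all genes. The median difference was 0.11 with 25 of 38 (65.8%) above 0, against 44.6% of all genes. The count was 25 after quantile normalization, 27 after median centring and 24 without WT 3, against 52.3%, 58.2% and 50.2% of all genes. Here too most of the list lay above 5.54, and whether the share above 0 follows signal level was not tested. After Ackr3, the genes of smallest p were Gnb2, a G protein beta subunit, at 8.54 ± 0.15 in WT and 8.90 ± 0.20 in mutants, and the kinase Jak2 at 5.37 ± 0.32 and 6.04 ± 0.63. The groups of Gnb2 did not overlap, with mutants higher, as in 215 of 19938 genes. The limma differences of Gnb2 and Jak2 were 0.36 ± 0.15 and 0.67 ± 0.29 (SE), with adjusted p-values of 0.973, and that of Jak2 was 0.37 without mutant 3. Jak2 lay below the 5.54 mark in WT 1, 3 and 4 (5.50, 5.35 and 4.94) and in mutant 4 (5.47).

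The relatives of the 4 genes were for the most part at low signal. Of the 11 other type III receptor kinases and their ligands 2 had a mean above 5.54, Pdgfb and Pdgfa, the latter at 8.34. Their median difference was -0.03, with 4 of 11 above 0 on deposited values and 6 of 11 after quantile normalization or median centring. Pdgfd differed by -0.40 ± 0.16, Flt3l by -0.27 ± 0.14 and the receptor Flt3 by -0.22 ± 0.13 (limma SE), while Csf1r, the macrophage receptor of this family, was at 4.82 ± 0.38 in WT and 4.78 ± 0.22 in mutants. Of the 18 CXC chemokine receptors and ligands other than Cxcr4 and Cxcl12, among which Ackr3 was counted again, 4 had a mean above 5.54 and 0 lay above 0 in the mutant comparison, with a median of -0.11. After quantile normalization, after median centring or without WT 3, 5 of 18 lay above 0 and 13 below, with medians of -0.03, -0.05 and -0.07, against 52.3%, 58.2% and 50.2% of all genes above 0. The olfactory and vomeronasal receptors had 27.3% above 0 on deposited values, and 44.6%, 43.8% and 37.5% in those settings. In the CXC list Cxcl17 differed by -0.44 ± 0.18 and Cxcl9 by -0.23 ± 0.14, and Cxcl14 was at 5.40 ± 0.17 in WT and 5.27 ± 0.29 in mutants. Of the 16 receptors in the CC chemokine list, 15 were measured, 3 lay above 5.54, and 4 of 15 lay above 0, a count that became 7 after quantile normalization and 8 after median centring or without WT 3. Ccr3, Ccr1 and Ackr1 differed by -0.32 ± 0.14 (limma SE), -0.28 ± 0.14 and -0.22 ± 0.18, and that of Ackr1 was -0.07 without WT 3. None of these 3 lists held a gene that passed, and at an unadjusted limma p under 0.05 they held 1, 2 and 0 genes, all lower in mutants, against 1.96% of all genes lower at that p.

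**Figure D4:**
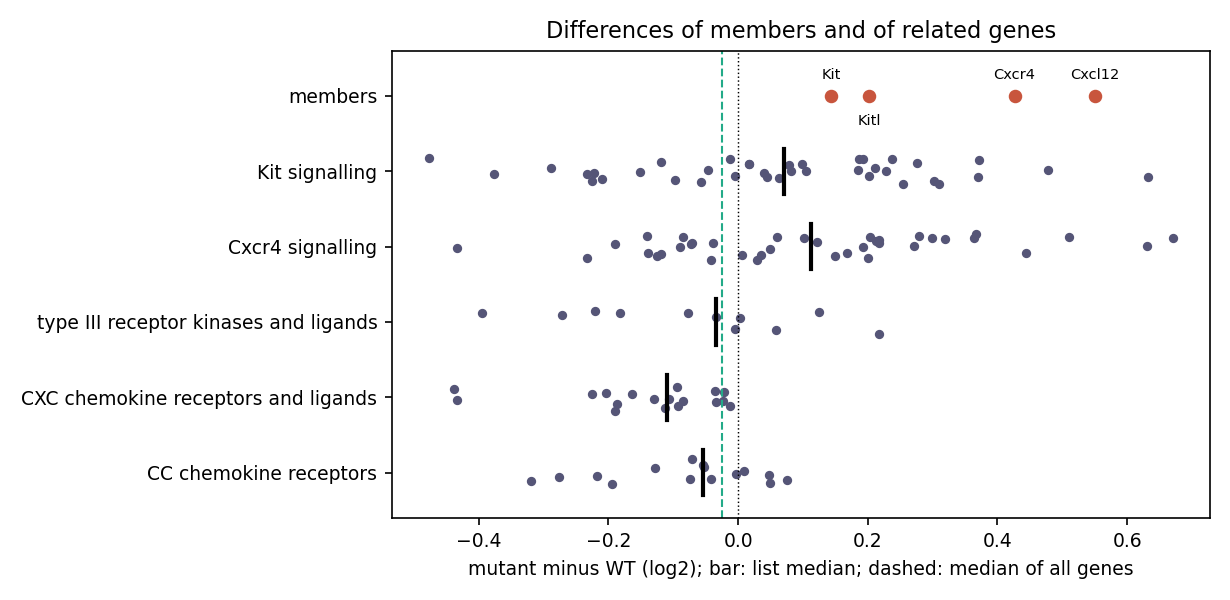
Mutant minus WT differences (horizontal axis, log2) of the 4 genes and of single genes in 5 related lists, with a bar at each list's median and a dashed line at the median of all genes (-0.02). All 18 CXC relatives lie left of 0 on deposited values, while Cxcr4 and Cxcl12 lie to the right at 0.43 and 0.55.

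The second question was whether the 4 genes follow the age of the embryo, counted in somites. With genotype in the limma model the slope per somite was -0.02 ± 0.05 for Kit, -0.01 ± 0.04 for Kitl, 0.15 ± 0.08 for Cxcr4 and -0.08 ± 0.06 for Cxcl12 (log2 per somite, SE). None passed, with adjusted p-values of 0.880, 0.926, 0.545 and 0.636, and none had an unadjusted limma p under 0.05, where 9.74% of all genes did and 0% passed. The direction for Kit turned after median centring and without WT 4, and that for Kitl under both scalings and without WT 1 or WT 4. The slope of Cxcl12 ran from -0.14 without WT 4 to -0.03 without mutant 1 as arrays were left out, and its sign turned with the replicate number as a block.

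Cxcr4 had a positive slope in each genotype taken alone, 0.15 in WT and 0.15 in mutants, with a 95% interval of the common slope from -0.03 to 0.32. Its lowest value, 7.89, was in the youngest WT embryo (21 somites), and its lowest mutant value, 8.60, in the youngest mutant (21 to 22 somites). WT 1 and WT 2, however, both of 25 somites, were at 8.37 and 9.10, so embryos of 1 age differed widely. The slope was 0.05 without WT 4 and 0.23 without WT 1. With somite number in the model the genotype difference of Cxcr4 was 0.50, from 0.43 without it, and did not pass.

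Among the 4 genes Cxcl12 had the widest gap between genotypes in its slope. Within WT its slope was -0.02 per somite, and within mutants -0.32, where the youngest embryo had the highest value (6.41) and the oldest, at 24 somites, the lowest (5.53). The difference of slopes was -0.30 ± 0.13 (limma SE, 95% interval -0.60 to -0.01), with an unadjusted p of 0.0466 and an adjusted p of 0.999, where 4.52% of all genes had an unadjusted p under 0.05 and 0% passed. The difference of slopes was -0.17 without mutant 1, with an unadjusted limma p of 0.425. At the older end of the range, mutant 1 and the WT embryos of 25 somites had Cxcl12 values of 5.53, 5.32 and 5.53.

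**Figure D5:**
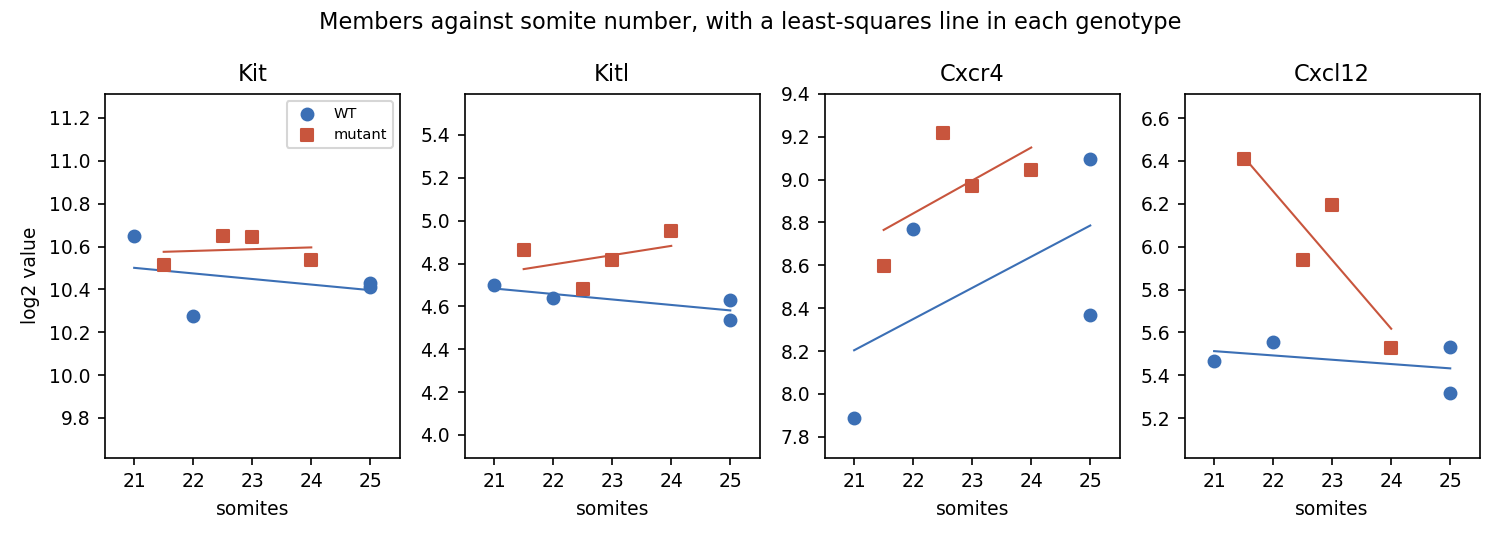
Log2 values (vertical axes, each spanning the same width) against somite number, with the midpoint where a range was given and a least-squares line in each genotype. Mutant Cxcl12 values run from 6.41 in the youngest embryo to 5.53 in the oldest, while WT values stay between 5.32 and 5.55, and the WT arrays at 25 somites are at 8.37 and 9.10 for Cxcr4.

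The 4 genes did not vary together across arrays in a way that passed a test. Of 10 relations computed (6 pairs of genes and each gene with somite number), the smallest adjusted p by exact permutation of pairings was 0.627 for Pearson's r and 0.567 for Spearman's rho. The highest r was between Kitl and Cxcl12, at 0.53 (exact permutation p = 0.176) with a rho of 0.43 (exact permutation p = 0.299), and it was 0.85 without mutants 1 and 4, the arrays farthest from the median of Kitl. Within genotype that r was -0.14. Kit and its ligand had an r of 0.41 and Cxcr4 and its ligand an r of 0.28, with exact permutation p-values of 0.312 and 0.503, and within genotype the r values were -0.07 and -0.18. Over both genotypes they were 0.46 and -0.44 without the 2 arrays farthest from the median of the receptor.

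The genes whose values across the 8 arrays were most like those of each of the 4 were named as a description, by Pearson's r among about 5979 genes of above-median level and spread. Zdhhc8, a palmitoyltransferase, Vdac1, the mitochondrial outer membrane channel, and Cyb561 followed Kit most closely, with r of 0.97, 0.95 and 0.95. Car8, Tcaf1 and Med25, a Mediator subunit, followed Kitl, with r of 0.94, 0.93 and 0.91. Cbx1, a heterochromatin protein, Rc3h1, an RNA-binding regulator of mRNA decay, and Mfsd1 followed Cxcr4, with r of 0.95, 0.94 and 0.94. Wasf2, an activator of actin nucleation in cell protrusions, Slc31a2, a copper transporter relative, and Ids, a lysosomal sulfatase, followed Cxcl12, with r of 0.95, 0.92 and 0.91. These r values come from 8 arrays that share the difference between genotypes. They are the highest of a search over about 5979 genes, which can return high r values for unrelated genes. All Kitl values lay below 5.54, so the genes named for Kitl follow values not separated from background.

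Among pathway genes, the somite slopes of smallest limma p were those of Elmo2 (0.24 ± 0.05 log2 per somite, SE), which links chemokine receptors to Rac, and of Itch (0.18 ± 0.05), the ubiquitin ligase that sends Cxcr4 to degradation, in the Cxcr4 list, with adjusted p-values of 0.281 and 0.428. In the Kit list they were Spred1 (0.14 ± 0.05), an inhibitor of Ras signalling, and Cblb (0.14 ± 0.05), with 0.464 and 0.471. Of the 38 measured genes of each list, 2 positive and 0 negative slopes in the Kit list and 5 positive and 1 negative in the Cxcr4 list had an unadjusted limma p under 0.05, against 9.74% of all genes, and 0 passed. In the family lists Pdgfa (0.14 ± 0.05), Csf1r (-0.12 ± 0.06), Cxcl16 (-0.12 ± 0.06), Cxcl3 (-0.11 ± 0.06), Ccr8 (-0.13 ± 0.05) and Ackr2 (-0.09 ± 0.04) had the slopes of smallest p, none of which passed.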

How the data were processed

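The authors deposited 1 value per probe and array for 8 arrays, taken as log2 from their range since no unit is named in the deposited table. The sources used here do not say how background was corrected or signals were normalized, and no scanner values were used. Per the labels' protocols, RNA of sorted cells was isolated on micro columns, then amplified and labelled with NuGEN Ovation FFPE WTA and Encore. Groups, replicate numbers and somite numbers came from the labels.

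Of 35557 probes, 21789 had 1 gene symbol, 1621 several and 12147 were unnamed here, and 21698 matched the reference by gene ID. The probe of highest mean stood for a gene. Genotype, somite number and their interaction were fitted on 19938 unfiltered genes by lmFit and eBayes of limma 3.58.1 (R 4.3.3), with Benjamini-Hochberg adjustment over all genes, a threshold of 0.05 and 95% intervals. Slopes used the midpoint of a somite range. The scripts were tested on simulated data. Nothing beyond the labels' embryo numbers says how embryos relate by litter, and the number of arrays limits precision.

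The 4 genes were named whatever their values. Each pathway or family list named its 3 genes of smallest p for genotype and 2 for somites, and a few set names were added: Ackr3, Dpp4, Adam17, Csf1r, Pdgfra, Flt3, Cxcl14, Pou5f1, Dppa3 and Ror2. The 4 genes and the lists were chosen with earlier results of these data known. Alternatives covered scaling, a filter on low values, probe choice, each embryo left out, a replicate block, array weights, eBayes options, and somite or sex covariates. Leaving out WT 3 and mutant 4 together, and all alternatives of the slope difference, were added after seeing the data.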

Additional observations from a re-analysis of the deposited data

How the results depend on the processing

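The mutant minus WT differences of Kit (0.08 to 0.21), Kitl (0.16 to 0.28), Cxcr4 (0.21 to 0.63) and Cxcl12 (0.42 to 0.71) kept their direction and stayed on the same side of the threshold in all 19 settings, or 18 for Kitl, and 0 genes passed for genotype in any of them. The unadjusted limma count of 934 genes for genotype was 1715 without WT 1. Leaving out 1 embryo at a time gave slopes from -0.042 to 0.034 for Kit and from -0.028 to 0.0037 for Kitl, and differences of slopes from -0.055 to 0.12 for Kit, -0.028 to 0.20 for Kitl and -0.23 to 0.17 for Cxcr4. It gave genotype differences from -0.17 to 0.13 for Csf1r, -0.21 to 0.010 for Cxcl14 and -0.051 to 0.21 for Ror2, and 0 to 2 genes past the somite threshold, none of them 1 of the 4 genes. Signs also turned for the Kitl slope (0.016 after quantile normalization, 0.013 after median centring), the Kit slope (0.0051 after median centring), the Kit difference of slopes (-0.049 with a sex covariate, -0.025 without WT 3 and mutant 4), the Cxcr4 difference of slopes (-0.035 at the lower end of somite ranges, -0.30 without WT 3 and mutant 4) and Csf1r (0.044 after quantile normalization, 0.026 after median centring, 0.032 without WT 3 and mutant 4). The somite count was 1 at the upper end of ranges, 1 with a sex covariate and 5 without WT 3 and mutant 4, from 0. The causes were not tested.

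Deviations from the group means had correlations of -0.05, 0.04, -0.19 and 0.10 between embryos with the same replicate number. These values cannot tell whether such embryos shared a litter or were handled together. With the replicate number as a block the genotype differences were the same, the Kitl slope was 0.017 and the Cxcl12 slope 0.13, and 70 genes passed for the difference of slopes, from 0, in a fit with 1 residual degree of freedom, none of them 1 of the 4 genes. Arrays give no detection limit here, which limits what can be said of Kitl and Cxcl12.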
